A study of Mus musculus with 6 samples.

Results

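The transcripts of the mouse mitochondrial genome were described in the livers of wild-type mice (WT) and mice labelled as carrying a liver-specific knockout of Arid2 (LKO). Members were all genes whose GENCODE vM21 symbol starts with mt-. This rule gave 37 of the 54532 gene identifiers in the deposited tables, and all 37 had a value in every library. They were 13 protein-coding genes, 2 rRNAs and 22 tRNAs. Each protein-coding gene is called an mRNA below, also where genes overlap and may share a transcript. Total RNA of liver from untreated mice was sequenced in 6 libraries, 3 per genotype, and ARID2 is part of PBAF, a complex that moves nucleosomes. The series title links ARID2 to hepatic steatosis and JAK2. The sources used here give no strain, age or driver of the liver-specific deletion. Labels name the libraries as separate samples but not as separate animals, so p-values measure only the spread between these samples.

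Mitochondrial DNA is a small circular genome present in many copies per cell, and hepatocytes are rich in mitochondria. Its 2 strands, called heavy and light, are transcribed into long precursors by the single-subunit polymerase POLRMT together with TFAM and TFB2M. The tRNAs that lie between most mRNAs and rRNAs are cut out of these precursors, which frees the other transcripts, and the mRNAs and rRNAs then receive short 3' tails. The mRNAs encode membrane subunits of complexes I, III, IV and V of the respiratory chain, whose remaining subunits come from nuclear genes. Stretches of mitochondrial DNA have also been copied into nuclear chromosomes during evolution. Reads from a member with such a copy can match both places.

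Values were FPKM, scaled per kilobase of transcript and to a common library scale, so that levels of different genes can be set side by side on this scale. How RNA selection and fragment length in library preparation act on rRNAs and on genes as short as tRNAs was not tested. Levels of mRNAs, rRNAs and tRNAs against each other are therefore those of these libraries and may differ from those in the cell. Reads per gene were recovered from the steps of the FPKM and came to between 13947777 and 18159282 per library. The targeted gene did not separate the labels. For replicates 1 to 3, the FPKM of Arid2 were 2.65, 1.74 and 1.79 in WT and 2.55, 1.33 and 2.04 in LKO. Each direction given below therefore compares libraries by label, and LKO stands for libraries labelled LKO. The replicate 1 libraries stood apart, with 2003 (WT) and 2368 (LKO) genes at 1 to 5 reads, where each of the other 4 libraries had 3913 to 4263 such genes.

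Several members share their sequence with nuclear DNA, and these sequences are shown first because they bear on which levels can be read. Of the 13 mRNAs, 7 had a match of at least 95% identity over at least 200 bases to an annotated pseudogene in 1 block of chromosome 1 (mm10, 24611535 to 24616197, minus strand). The sequence of mt-Co2 was identical to Gm28661 over 681 of its 684 bases, that of mt-Atp6 to Gm10925 over 678 of 681, and that of mt-Co3 to Gm28437 over 783 of 784. In the same block mt-Nd4l was identical to Gm10222 over 294 of 297 bases, and mt-Nd4 to Gm28439 over its first 876 of 1378 bases. The first 60 bases of mt-Co2 and of its copy, with the start codon in capitals, show that no read from this stretch can be assigned to either gene by its sequence.
mt-Co2: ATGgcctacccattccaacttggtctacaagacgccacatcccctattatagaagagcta
Gm28661: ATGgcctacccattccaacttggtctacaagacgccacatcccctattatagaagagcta

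The other matches to chromosome 1 differed from their member at 1 base each. Counted from 1 at the first base of the member, mt-Co1 and Gm29216 differed by A1066T near the start of a match of 483 bases (99.8% identity). In mt-Nd3 and Gm28438 the difference was T3C, in the start codon, within a match of 345 bases (99.7% identity). The windows below begin at the first base of each match and carry the differing base in capitals.
mt-Co1: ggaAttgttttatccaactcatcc
Gm29216: ggaTttgttttatccaactcatcc
mt-Nd3: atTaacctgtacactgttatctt
Gm28438: atCaacctgtacactgttatctt

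The spacing of the copies followed the mitochondrial genome. Between the matches of mt-Co1 and mt-Co2 lay 140 bases in both places, between mt-Co2 and mt-Atp6 233, between mt-Atp6 and mt-Co3 2, and between mt-Co3 and mt-Nd3 69. The interval between mt-Nd3 and mt-Nd4l, which holds the arginine tRNA gene mt-Tr, had 73 bases in the mitochondrial genome and 74 on chromosome 1. Most of mt-Atp8, 161 of 204 bases, lies in the interval of 233 bases. No gene is annotated there on chromosome 1 in GENCODE vM21, so a match of mt-Atp8 could not be tested with transcript sequences. Weaker matches lay on chromosome 2, where Gm13340 matched all of mt-Co1 (97.6% identity), Gm13341 all of mt-Co2 (95.9%) and Gm13339 the last 510 bases of mt-Nd2 (96.7%). On chromosome 13, Gm4076 matched 954 bases of mt-Nd5 (95.2%).

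Members also overlap each other, which matters where a read covers both. How such reads were counted is not known here. The last 43 bases of mt-Atp8 are the first 43 of mt-Atp6, in another reading frame, and the last 7 bases of mt-Nd4l are the first 7 of mt-Nd4. In the mt-Atp8 line the capitals mark the start codon of mt-Atp6 and the stop codon of mt-Atp8, and in the mt-Nd4l line the shared bases. The last 3 lines show mRNAs whose annotated sequence ends in a single T, marked by a capital; the 3' tail supplies the rest of the stop codon. The other 10 mRNAs end in a full stop codon.
mt-Atp8: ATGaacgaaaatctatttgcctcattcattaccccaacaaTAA
mt-Nd4l: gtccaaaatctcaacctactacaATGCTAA
mt-Co3: tccatttattgatgaggatctT
mt-Nd4: ctaattacaggcctgacaataT
mt-Cytb: aaaatactaaaattatatccaT

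The mitochondrial share of reads varied 5.80-fold between libraries and did not follow the genotype labels. In replicates 1 to 3, the members took 20.7%, 10.2% and 18.5% of the WT reads and 27.6%, 7.72% and 4.76% of the LKO reads. Both the highest and the lowest library were labelled LKO, and the WT libraries lay between them. The mean was 16.5% ± 5.54 in WT and 13.4% ± 12.4 in LKO (SD, n = 3 per group), a difference of -3.11 percentage points (exact permutation test over samples, two-sided, p = 0.8, where 0.1 is the smallest p that 3 against 3 allows). Without LKO replicate 3 the difference turned to 1.19, and without LKO replicate 1 it was -10.2. Without both replicate 1 libraries it was -8.12. In bulk RNA, fewer cells with many mitochondria and less mitochondrial RNA per cell cannot be told apart.

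**Figure D1:**
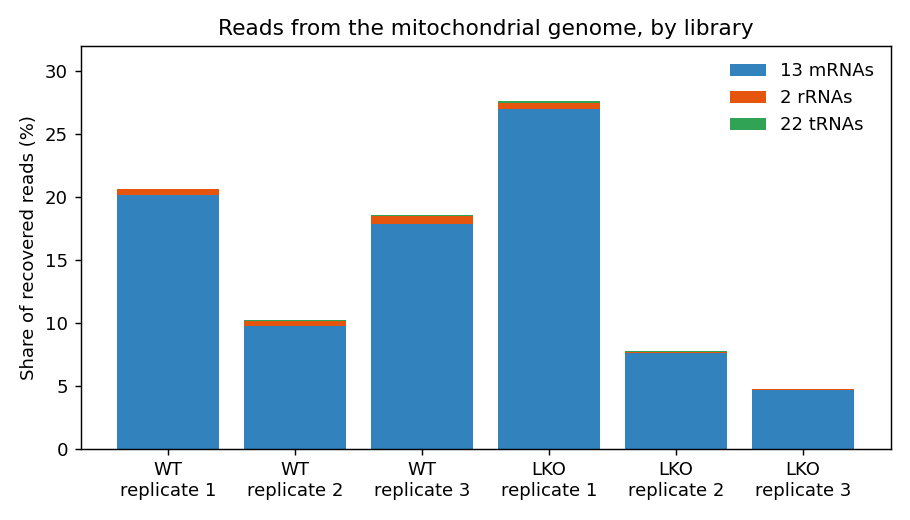
Share of recovered reads (%) that fell on the mitochondrial genome in each of the 6 libraries, stacked by class (13 mRNAs, 2 rRNAs, 22 tRNAs); each bar is 1 library. LKO replicate 1 is the highest at 27.6% and LKO replicate 3 the lowest at 4.76%, with the WT libraries between 10.2% and 20.7%.

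The number of nuclear reads ran the other way at both ends. It was lowest in LKO replicate 1 (10100034) and highest in LKO replicate 3 (17295420). Nuclear reads are the total less the reads of the members, so both are linked by construction. The part of nuclear reads in the mitochondrial share was not tested, and member levels scaled to nuclear reads are given below. Hepatocyte markers (7 of 7 detected, among them Alb and Apob) summed to 43946 to 57337 FPKM in WT and 47486 to 63784 in LKO, and these ranges overlap. The sum came mainly from Alb and Apoa1. Of the 7, 4 had a log2 difference above and 3 below 0. Tat was above WT in every LKO library, as 8.0% of all genes were (WT 482, 451 and 801 FPKM, LKO 836, 1027 and 1574 FPKM; limma adjusted p = 0.525). Markers of other mitochondria-rich tissues were at or near 0. Skeletal muscle (Acta1, Ckm, Myh4) and kidney (Umod, Slc12a1, Kap) markers were at 0 in all libraries, and brown fat markers (Ucp1, Cidea) summed to at most 0.25 FPKM. Erythroid markers (5 of 5 detected) summed to 139 to 330.0 FPKM in WT and 91.2 to 149 in LKO. Of these, Alas2 did not overlap, at 27.7 ± 15.6 FPKM in WT and 3.69 ± 1.96 in LKO (SD, n = 3; limma adjusted p = 0.183). Neutrophil markers (2 of 3 detected, Ly6g at 0) summed to 0.410 to 2.82 FPKM in WT and 2.30 to 12.2 in LKO. Of these, S100a8 was above WT in every LKO library (WT 0.374, 0.410 and 0.369 FPKM, LKO 4.65, 2.21 and 0.683 FPKM; adjusted p by limma 0.436), and S100a9 overlapped (unadjusted p = 0.039, limma adjusted p = 0.4997). B cell markers summed to 0.799 to 0.933 FPKM in WT and 0.176 to 0.755 in LKO, too low to be tested. The other liver marker sums overlapped between the labels. They were 11.5 to 34.2 FPKM in WT and 12.0 to 33.6 in LKO for Kupffer cells and macrophages. Endothelial markers summed to 7.41 to 13.5 and 4.49 to 11.2 FPKM, and stellate and fibroblast markers to 9.29 to 14.4 and 10.7 to 17.5 FPKM. Cholangiocyte and T and NK cell sums also overlapped. The part of these cells in the result was not tested.

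The mRNAs made up between 95.8% and 98.2% of mitochondrial reads. The most abundant was mt-Co1, the catalytic core of complex IV (mitochondrial chromosome of mm10, 5328 to 6872, plus strand, as all positions of members below unless stated). Its FPKM in replicates 1 to 3, the order used throughout, were 46083, 25002 and 44739 for WT and 77558, 19944 and 12403 for LKO. Next came mt-Cytb, the cytochrome b of complex III (14145 to 15288), at 31862, 15521 and 31084 FPKM in WT and 47503, 14228 and 6909 in LKO. For both, LKO replicate 1 lay above and LKO replicates 2 and 3 below all WT libraries. This order of the 6 libraries at the extremes was general, since all 13 mRNAs were highest in LKO replicate 1 and lowest in LKO replicate 3.

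Complex I, the NADH dehydrogenase, takes 7 of the mRNAs. The membrane subunit gene mt-Nd2 (3914 to 4951) was at 20005, 10249 and 18610 FPKM in WT and 29922, 8191 and 4207 in LKO. Its neighbour mt-Nd1 (2751 to 3707) was at 14048, 9082 and 16615 FPKM in WT and 31182, 7763 and 4439 in LKO. The order of these 2 genes was not stable, as mt-Nd2 was above mt-Nd1 in 4 of 6 libraries. For mt-Nd4 (10167 to 11544), a subunit of the proton-pumping arm, the level was 12644, 6966 and 14085 FPKM in WT and 20144, 6751 and 2866 in LKO. The adjacent arm subunit gene mt-Nd5 (11742 to 13565) was at 5860, 3801 and 7764 FPKM in WT and 9842, 3060 and 1624 in LKO.

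The only mRNA encoded on the light strand is mt-Nd6 (13552 to 14070, minus strand), also of complex I. Its level was 8048, 4664 and 9436 FPKM in WT and 14187, 4567 and 1852 in LKO, above mt-Nd5 in every library by 1.14 to 1.49 times. Its base composition is the reverse of the other 12 mRNAs, with 28.1% G and 5.97% C against at most 16.1% G and at least 22.1% C. The sources used here do not say whether reads were counted by strand. Reads from the light strand and from heavy-strand precursors that run across mt-Nd6 cannot be told apart, so its level is uncertain to that extent.

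Lower levels were found for 6 mRNAs. The subunit genes mt-Atp6 (7927 to 8607) and mt-Atp8 (7766 to 7969) belong to the ATP synthase, complex V. For mt-Atp6 the level was 1340, 736 and 3303 FPKM in WT and 4514, 855 and 290 in LKO, and for mt-Atp8 25.7, 27.9 and 53.4 FPKM in WT and 73.3, 11.6 and 10.8 in LKO. The complex IV subunit gene mt-Co2 (7013 to 7696), which accepts electrons from cytochrome c, was at 1114, 519 and 3083 FPKM in WT and 3146, 898 and 315 in LKO. WT replicate 3 was the second highest library for all 3 of these genes.

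For mt-Co3 (8607 to 9390), the third core subunit gene of complex IV, the level was 833, 430 and 1886 FPKM in WT and 3456, 496 and 180 in LKO. The small complex I subunit genes followed. Values of mt-Nd4l (9877 to 10173) were 205, 209 and 478 FPKM in WT and 831, 111 and 86.7 in LKO. Values of mt-Nd3 (9459 to 9806) were 234, 180 and 259 FPKM in WT and 437, 132 and 97.3 in LKO. The groups overlapped for each of the 13 mRNAs.

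**Figure D2:**
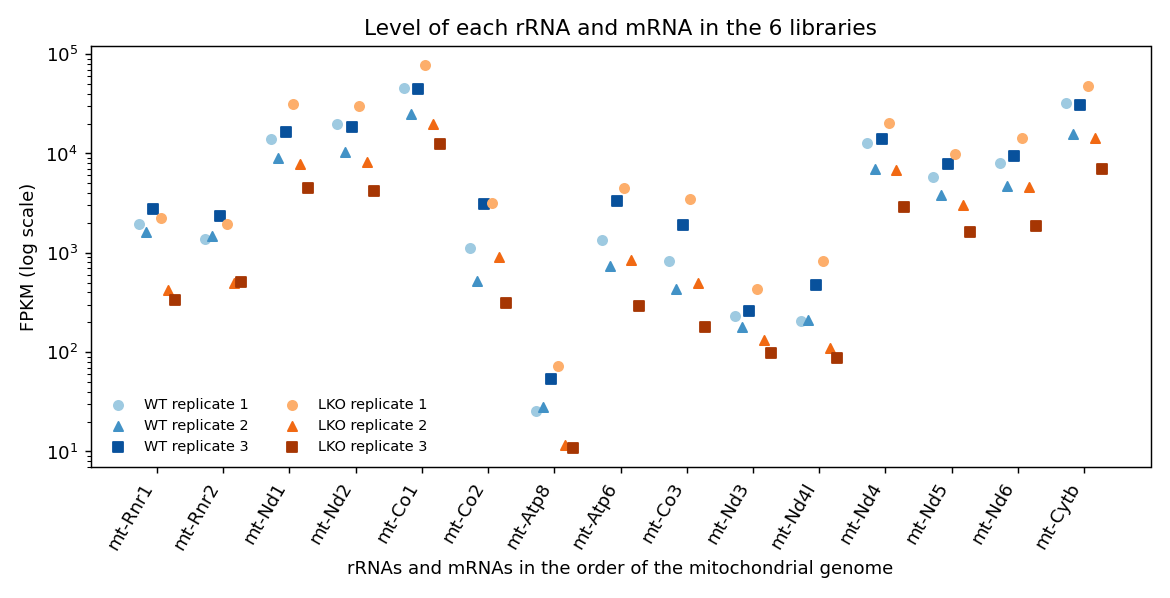
Level (FPKM, log scale) of the 2 rRNAs and 13 mRNAs in the order of the mitochondrial genome; each point is 1 library, WT in blue and LKO in orange. For every mRNA LKO replicate 1 is the highest point and LKO replicate 3 the lowest, and 6 mRNAs lie below the other 7 in each library.

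In the order of mean levels, mt-Co1, mt-Cytb, mt-Nd2, mt-Nd1, mt-Nd4, mt-Nd6 and mt-Nd5 came first. From mt-Nd5 to the next mRNA, mt-Atp6, the level dropped by 2.18 to 5.61 times within a library, and this order held in 6 of 6 libraries. Of the 2 smallest complex I mRNAs, mt-Nd4l was above mt-Nd3 in 3 of 6 libraries, and mt-Nd3 was 4.85 to 11.4 times above mt-Atp8. Since mt-Atp8 overlaps mt-Atp6 and mt-Nd4l overlaps mt-Nd4, each pair may share a transcript. Differences in level within these pairs are therefore uncertain, and the part of read counting in them was not tested. The drop from mt-Nd5 to mt-Atp6 coincided with the matches to chromosome 1. Of all 50-base windows of the mRNA, between 98.0% and 100% were found without a mismatch in an annotated nuclear transcript for mt-Atp6, mt-Co2, mt-Co3, mt-Nd4l and mt-Nd3. The share was 62.2% for mt-Nd4, 51.1% for mt-Co1 and at most 8.19% for mt-Nd1, mt-Nd2, mt-Nd5, mt-Nd6 and mt-Cytb. For mt-Atp8 it was 0%, within the limit that the interval around its possible copy is not annotated.

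**Figure D3:**
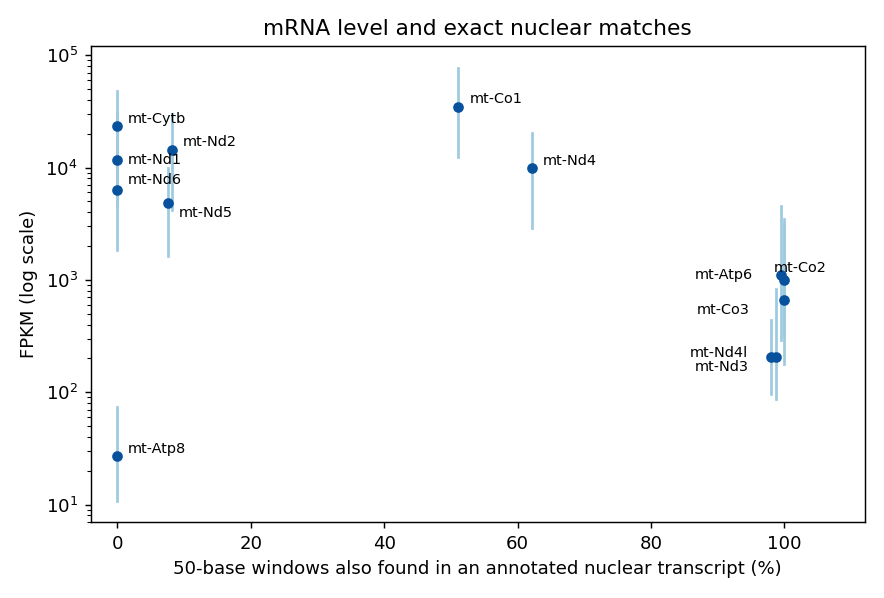
Level of the 13 mRNAs (FPKM, log scale; point, median of 6 libraries; line, lowest to highest library) against the share of their 50-base windows found exactly in an annotated nuclear transcript (%). The 5 mRNAs at 98.0% to 100% lie below every mRNA at 62.2% or less apart from mt-Atp8, which is at 0%.

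The pseudogenes of the block on chromosome 1 carried reads in every library. Gm28661 was at 1140, 627 and 1485 FPKM in WT and 2496, 568 and 274 in LKO, and the ratio of mt-Co2 to it was 0.827 to 2.08. Gm10925 was at 786, 447 and 1503 FPKM in WT and 2108, 459 and 176 in LKO, and the ratio of mt-Atp6 to it was 1.64 to 2.20. In contrast, mt-Co1 was 38.9 to 89.6 times above Gm29216 and mt-Nd4 31.5 to 59.8 times above Gm28439. All 7 pseudogenes were highest in LKO replicate 1, as their members were, and none passed the test (limma adjusted p from 0.869 to 0.990). The treatment of reads with several matches is not stated in the labels or processing notes, so levels of mt-Co2, mt-Atp6, mt-Co3, mt-Nd4l and mt-Nd3 and of their copies are uncertain. The same limit holds in part for mt-Co1 and mt-Nd4, with 51.1% and 62.2% of their windows matched. It extends to the order of levels and to the shares in the mRNA pool given below. Pseudogenes matched at 95% or more held 1.17% to 1.89% as many reads as the members. Adding them left the LKO minus WT difference in mitochondrial share at -3.13 percentage points. Any reads left uncounted because they match several places are not in this sum, so it cannot show their effect.

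The shares of the 7 abundant mRNAs in the mRNA pool varied less between libraries than their levels. This is partly built in, since these 7 made up 94.0% to 97.4% of the pool by which they were divided. The share of mt-Co1 in the summed FPKM of the 13 mRNAs was 32.4%, 32.3% and 29.6% in WT and 31.9%, 29.8% and 35.2% in LKO. For mt-Cytb it was 22.4%, 20.1% and 20.5% in WT and 19.6%, 21.2% and 19.6% in LKO. The highest and lowest share of any of the 7 differed by 1.14 to 1.30 times, whereas their FPKM differed by 6.06 to 7.66 times. Some ratios between neighbours in the order of levels moved more, with mt-Nd2 to mt-Nd1 at 0.948 to 1.42 and mt-Nd1 to mt-Nd4 at 1.11 to 1.55. Others did not, such as mt-Cytb to mt-Nd2 at 1.51 to 1.74 and mt-Nd4 to mt-Nd6 at 1.42 to 1.57. The 6 low mRNAs were less regular, and their shares differed by 1.68 to 3.04 times. In WT replicate 3, mt-Co2 made up 2.04% of the pool against 0.783% and 0.670% in WT replicates 1 and 2.

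**Figure D4:**
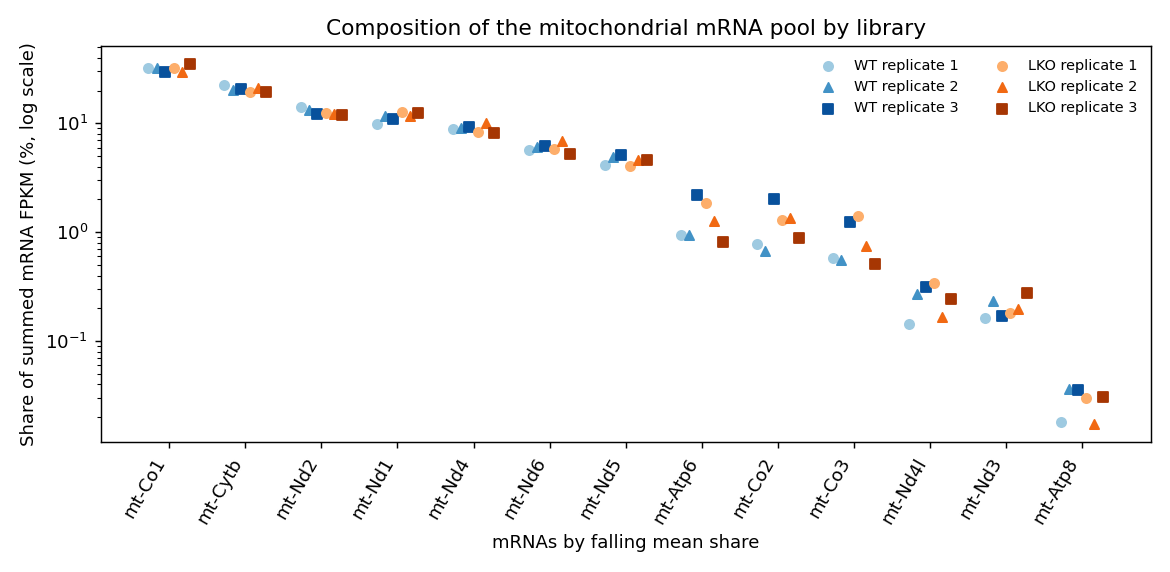
Share of each mRNA in the summed FPKM of the 13 mRNAs (%, log scale), with mRNAs ordered by mean share; each point is 1 library, WT in blue and LKO in orange. The points of the 7 abundant mRNAs lie within 1.30 times of each other, and those of the 6 low mRNAs spread up to 3.04 times.

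The shares of all 13 mRNAs overlapped between the genotype labels. In an exact permutation test over samples the smallest p among the 13 shares was 0.2, for mt-Nd1 and mt-Nd2, and 1 after Benjamini-Hochberg adjustment over the 13. For mt-Nd1 the share was 10.9% ± 0.937 in WT and 12.3% ± 0.664 in LKO, and for mt-Nd2 it was 13.2% ± 0.884 and 12.2% ± 0.207 (SD, n = 3). As a share of reads, mt-Nd1 did not overlap between the labels (8.43% ± 0.740 and 9.58% ± 0.5004, exact permutation p = 0.1, adjusted 0.929). With mt-Atp8, mt-Atp6, mt-Nd4l and mt-Nd4 left out of the pool, mt-Nd1 and mt-Nd2 did not overlap between the labels (exact permutation p = 0.1 for both, adjusted 0.45). Other members with overlaps were kept in that setting. By complex, complex I took 42.9% to 45.6% of the pool, complex III 19.6% to 22.4%, complex IV 31.8% to 36.6% and complex V 0.852% to 2.22%.

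The mt-Rnr1 and mt-Rnr2 genes encode the rRNAs of the small and the large mitochondrial ribosomal subunit. For mt-Rnr1 (70 to 1024) the level was 1948, 1613 and 2746 FPKM in WT and 2262, 424 and 332 in LKO. For mt-Rnr2 (1094 to 2675) it was 1361, 1463 and 2321 FPKM in WT and 1940, 491 and 510 in LKO. LKO replicate 1 lay within the WT range and LKO replicates 2 and 3 below it, unlike the mRNAs, where LKO replicate 1 exceeded WT. On the log2(FPKM + 1) scale, LKO minus WT came to -1.58 ± 0.73 for mt-Rnr1 (SE; limma adjusted p = 0.585) and -1.08 ± 0.60 for mt-Rnr2 (limma adjusted p = 0.651). Without LKO replicate 1 these were -2.45 and -1.73, and neither passed.

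The rRNAs took a small part of the mitochondrial reads in these libraries, which need not be their part in the cell. In WT their share was 2.22%, 3.84% and 3.29%, and in LKO 1.73%, 1.42% and 2.47%. The means were 3.12% ± 0.827 and 1.87% ± 0.541 (SD, n = 3), and LKO replicate 3 lay above WT replicate 1, so the groups overlapped (difference -1.25 percentage points, exact permutation test, two-sided, p = 0.2). As a share of summed FPKM, which weights each transcript per length, the groups did not overlap, but only just, with 2.18% as the lowest WT value and 2.17% as the highest LKO value (p = 0.1, the smallest this exact test allows). The ratio of mt-Rnr2 to mt-Rnr1 FPKM was 0.699, 0.907 and 0.845 in WT and 0.858, 1.16 and 1.54 in LKO.

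The tRNA genes, of 59 to 75 bases, had few reads, between 3436 and 14629 per library and 0.220% to 0.399% of mitochondrial reads. Reads of a tRNA and of a longer precursor that still holds it cannot be told apart in these values. The 5 tRNAs with the most reads were all encoded on the light strand, although only 8 of 22 are. The proline tRNA gene mt-Tp (15356 to 15422, minus strand), which borders the control region, was at 2302, 2147 and 5287 FPKM in WT and 10957, 3027 and 989 in LKO. Next was the glutamate tRNA gene mt-Te (14071 to 14139, minus strand), between mt-Nd6 and mt-Cytb, at 1649, 1292 and 2177 FPKM in WT and 1593, 477 and 269 in LKO. The cysteine (mt-Tc) and asparagine (mt-Tn) tRNA genes followed with means of 743 and 389 reads per library. Light-strand tRNAs held 76.9% to 90.0% of tRNA reads, with the same limit on strand as for mt-Nd6. The sequences of the leading pair, shown whole, are those of the encoded tRNAs.
mt-Tp: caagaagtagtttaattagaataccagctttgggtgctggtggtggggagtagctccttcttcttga
mt-Te: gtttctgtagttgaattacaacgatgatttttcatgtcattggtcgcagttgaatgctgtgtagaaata

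At the other end, mt-Tf and mt-Td had 0 reads in all 6 libraries, and mt-Tk, mt-Ts1 and mt-Tv had at most 2 in any. For a gene of 68 bases such as mt-Tf, 3 reads correspond to 2.29 to 3.47 FPKM depending on the library. Levels below this can give 0 reads at this depth, so 0 reads do not show absence. This floor covers counting error only.

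No member passed the test between the genotype labels. Of the 37 members, 33 had a mean of at least 0.5 FPKM and were tested by limma over all 11672 such genes. At an adjusted p under 0.05, 0 members rose and 0 fell, where 0.0428% of all genes were called (0.00857% higher, 0.0343% lower). At an unadjusted p under 0.05 there were 4 of 33 members (12.1%), all tRNAs and all with lower values in LKO, against 9.22% of all genes in either direction and 4.93% in that direction. This count also turned on single libraries, and was 2 of 33 (6.06%) without WT replicate 2, without LKO replicate 2 or without LKO replicate 3. The shares over all genes in these settings were 8.10%, 5.34% and 12.9%. Without LKO replicate 1 it was 18 of 33 (54.5%), against 15.1% of all genes, with a smallest limma adjusted p of 0.068. Without both replicate 1 libraries it was 16 of 33 (48.5%), against 11.0% of all genes, with a smallest limma adjusted p of 0.093. A voom fit to the recovered reads also called 0 members. The median log2 difference of the 33 was -0.51, with 29 below 0 (87.9%), against a median of 0.03 and 45.9% below 0 over all genes. This sign rests on 1 library, since the median was 0.06 without LKO replicate 3, with 15 of 33 below 0, and -1.29 without LKO replicate 1, with 32 below 0. Without both replicate 1 libraries it was -1.23, also with 32 below 0.

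**Figure D5:**
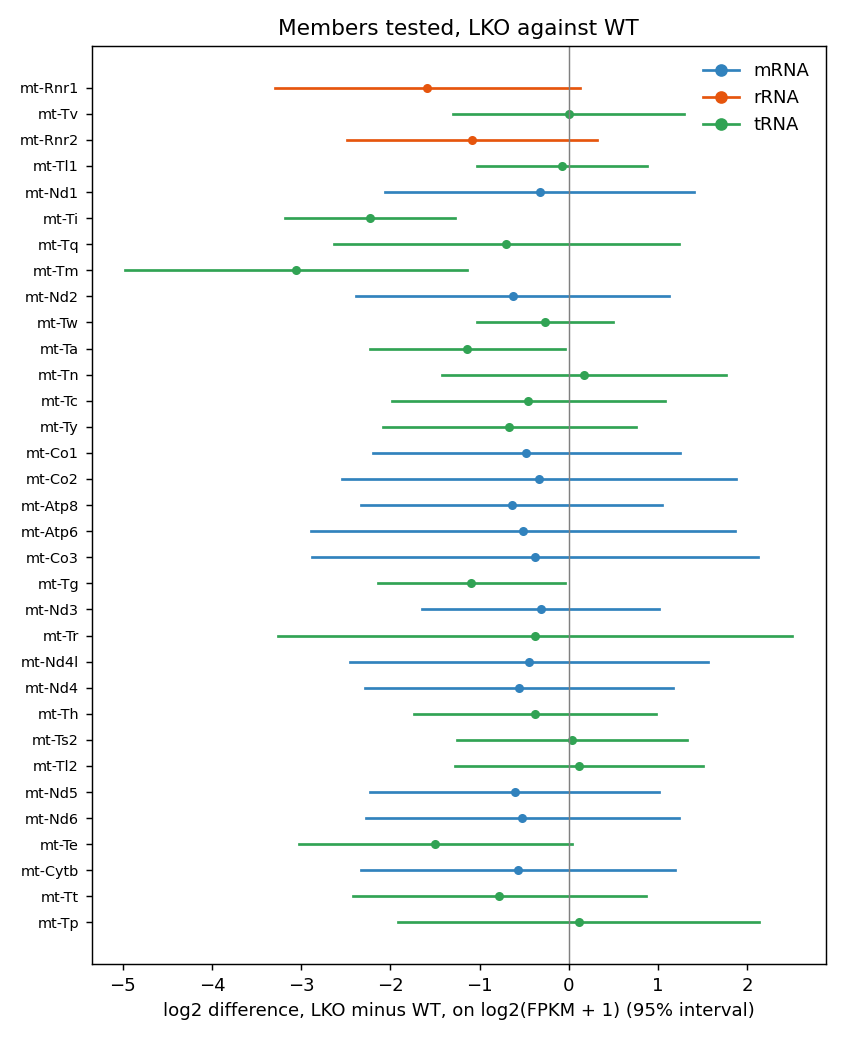
Log2 difference between LKO and WT for the 33 members tested, on the log2(FPKM + 1) scale, in genome order; points are limma estimates and lines 95% intervals, coloured by class. The interval includes 0 for 29 members, among them all mRNAs and rRNAs, and the remaining 4 are tRNAs with adjusted p of 0.153 or more.

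The 13 mRNAs had log2 differences between -0.64 (mt-Atp8) and -0.32 (mt-Nd3), with adjusted p from 0.861 to 0.954 by limma. For mt-Co1 the difference was -0.48 ± 0.74 (SE; 95% interval -2.20 to 1.25, limma adjusted p = 0.906), and for mt-Cytb -0.57 ± 0.75 (-2.33 to 1.19, limma adjusted p = 0.889). These intervals leave room for changes in either direction. The standard errors of the mRNAs, 0.57 to 1.07, were larger than the median of 0.30 over all genes, and all 13 differences had the same sign under scaling to library totals or to nuclear reads. Without LKO replicate 3, 11 of the 13 mRNAs turned to a difference above 0, and mt-Atp8 and mt-Nd5 did not.

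Only 2 members had every LKO library below every WT library, 6.06% of the 33, where 7.42% of all genes did. Both were singled out after their values were seen. The isoleucine tRNA gene mt-Ti (3706 to 3774) was at 22.6, 23.9 and 56.6 FPKM in WT and 7.99, 5.56 and 4.58 in LKO, from 30, 29 and 61 reads against 7, 6 and 6 reads. Its log2 difference was -2.23 ± 0.41 (SE; limma adjusted p = 0.153). The initiator and elongator methionine tRNA gene mt-Tm (3845 to 3913) was at 25.6, 56.8 and 47.3 FPKM in WT and 18.3, 2.78 and 0.763 in LKO, from 34, 69 and 51 reads against 16, 3 and 1. Its log2 difference was -3.06 ± 0.82 (SE; limma adjusted p = 0.316). These neighbours lie between mt-Nd1 and mt-Nd2 on the same strand, with the light-strand gene mt-Tq between them, and mt-Tq overlapped between the groups. Leaving out any library kept mt-Ti between -2.46 and -1.81 and mt-Tm between -4.02 and -2.30. Because both were picked for groups without overlap, leaving out a library could not turn their sign.
mt-Ti: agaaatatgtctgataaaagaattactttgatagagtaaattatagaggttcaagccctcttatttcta
mt-Tm: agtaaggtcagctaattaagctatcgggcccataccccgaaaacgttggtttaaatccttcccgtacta

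The nuclear genes that serve this genome were summarised from 8 lists with 174 tested entries, and none rose or fell (0 of 174 at an adjusted p under 0.05 by limma; 5 of 174, or 2.87%, at an unadjusted p under 0.05). Over all genes these shares were 0.0428% and 9.22%. The medians of the log2 differences ran from -0.14 to 0.17. Tfam, which packages mitochondrial DNA and starts its transcription, was at 6.45, 9.16 and 6.95 FPKM in WT and 6.05, 9.21 and 11.7 in LKO. Its highest value was in LKO replicate 3 and its lowest in LKO replicate 1, opposite to the mRNAs. Grsf1, Gfm1 and Gabpa from these lists had the same highest and lowest library, so this order was not particular to Tfam. The polymerase gene Polrmt was at 8.05, 5.65 and 5.66 FPKM in WT and 8.77, 5.34 and 5.22 in LKO. Its highest and lowest libraries were those of the mRNAs. All genes named in this paragraph were added after their values were seen. Neither Tfam nor Polrmt differed between labels beyond its spread (limma adjusted p = 0.902 and 0.991).

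Of 11 transcription genes tested, 4 lay above and 7 below 0. The smallest p values were those of Mterf1b and Mterf1a, copies of a transcription termination factor gene, at 1.03 ± 0.191 and 1.06 ± 0.670 FPKM in WT and 0.555 ± 0.666 and 0.574 ± 0.307 in LKO (SD, n = 3). As near-identical copies, their levels are uncertain. Of 18 genes for RNA processing and decay, 13 lay above 0. Among them Hsd17b10, a subunit of the ribonuclease that cuts the 5' ends of mitochondrial tRNAs, was at 70.3, 123 and 134 FPKM in WT and 251, 198 and 129 in LKO (limma adjusted p = 0.604). Tbrg4 (also FASTKD4), which stabilises some mitochondrial mRNAs, was at 10.5 ± 0.709 and 14.9 ± 3.31 FPKM (limma adjusted p = 0.672). Of 17 genes for rRNA and tRNA modification, 11 lay above 0. For Rpusd3, a pseudouridine synthase, WT had 3.45 ± 0.638 and LKO 1.65 ± 0.733 FPKM (limma adjusted p = 0.445). For the rRNA methyltransferase gene Mrm1, WT had 1.71 ± 0.508 and LKO 0.883 ± 0.269 FPKM (limma adjusted p = 0.539). Both lay lower in every LKO library, as 7.42% of all genes did.

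Of 12 genes for replication of mitochondrial DNA and its nucleotide supply, 7 lay above 0. Dguok, which makes deoxypurine nucleotides in mitochondria, was at 4.09, 2.91 and 3.11 FPKM in WT and 1.45, 1.94 and 2.26 in LKO (limma adjusted p = 0.474). Polg2, the accessory subunit of the mitochondrial DNA polymerase, was at 1.60, 1.85 and 1.91 FPKM in WT and 0.398, 0.705 and 1.53 in LKO (limma adjusted p = 0.529). Of 8 regulators of mitochondrial biogenesis, 4 lay above 0. Esrra, the nuclear receptor ERR-alpha, was at 25.5, 19.8 and 18.1 FPKM in WT and 11.4, 7.58 and 13.4 in LKO. It was below WT in every LKO library, as 7.42% of all genes were (log2 difference -0.93 ± 0.30 SE, limma adjusted p = 0.389). For the coactivator-related gene Pprc1 the values were 1.99, 1.47 and 1.28 FPKM in WT and 5.36, 5.25 and 1.25 in LKO (limma adjusted p = 0.626).

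The translation machinery went both ways. Of 77 mitochondrial ribosomal protein genes, 42 lay above and 35 below 0, with a median of 0.04 and a range from -0.48 (Mrpl22) to 0.83 (Mrps18b, named after its value was seen). Mean FPKM of Mrpl19 were 1.14 ± 0.343 (WT) and 1.90 ± 0.463 (LKO), and those of Mrpl22 19.7 ± 3.08 and 13.7 ± 1.26 (limma adjusted p = 0.613 and 0.624). Of 18 tRNA synthetase genes, 12 lay above 0, with Ears2 at 1.72 ± 0.252 and 2.39 ± 0.526 FPKM and Pars2 at 0.777 ± 0.362 and 0.418 ± 0.0632. Of 13 translation factor genes, 6 lay above 0. The initiation factor gene Mtif3 had 3.07 ± 0.804 (WT) and 2.01 ± 0.396 FPKM (LKO), and Oxa1l, which inserts newly made subunits into the inner membrane, had 12.1 ± 0.356 and 9.63 ± 1.99.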

How the data were processed

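Liver RNA of 3 WT and 3 LKO libraries was measured by RNA sequencing. Per the labels' protocols, total RNA was extracted with TRIzol and a column kit and made into libraries with a NEBNext Ultra kit. The authors deposited FPKM, 1 table per library, not pooled. Per the submitters' processing notes, the tools were featureCounts 1.5.0-p3, HISAT2 2.0.5, DESeq2 1.20.0 and CASAVA, with no role stated, and the build was mm10. For the annotation release, strand setting and multiply matching reads, nothing is given in the sources used here.

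From the deposited FPKM, reads per gene were recovered as the value times the merged exon length in GENCODE vM21 divided by a step found for each library. Between 96.1% and 96.4% of values came out whole within 0.05 reads, and 54495 of 54532 identifiers were in the annotation. The deposited scale implied totals of 12704131 to 19279636 per library, which differ from the recovered reads. How this scale was set is not stated in the sources used here. Recovered reads were 13947777 to 18159282 per library. No value columns were left unmapped and no 2 libraries held identical values.

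Groups were compared with limma 3.58.1 (R 4.3.3) on log2(FPKM + 1) with a mean-variance trend and robust moderation, over 11672 genes (mean of 0.5 FPKM or more), with Benjamini-Hochberg adjustment over all of them and a threshold of 0.05. A fold change on this scale understates the change of low genes. Single values such as shares were compared by exact permutation over samples. Nuclear copies were found with BLAST+ 2.17.0 among GENCODE vM21 transcripts, at 95% identity or more over at least 200 bases. In simulated data (11346 genes) the test recovered 0% of 2-fold, 33.3% of 4-fold and 70.3% of 16-fold changes, with 1 false call.

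The members and gene lists were chosen with earlier results of these data known. All mRNAs and rRNAs were named, the 4 tRNAs with the most reads, the genes with the smallest p in each nuclear list (2 per list), and copies on chromosome 1. Alternatives were other pseudocounts (0.1), filters (none, or a mean of 1 FPKM), scalings to library totals or nuclear reads, voom on recovered reads, a replicate block, and leaving out libraries.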

Additional observations from a re-analysis of the deposited data

How the results depend on the processing

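No member was called under any setting run, and the median difference of the members stayed between -0.67 and -0.48 under other pseudocounts, filters, scalings, voom or the replicate block. It was -1.23 without both replicate 1 libraries, where the mitochondrial share differed by -8.12 points. Scaling to nuclear reads moved the median of all genes by -0.12, and the members relative to it lay at -0.59. Genes called over the whole table, 1 higher and 4 lower in the reported fit, were 0 and 1 without a filter, 0 and 4 when scaled to nuclear reads, and 1 and 1 without both replicate 1 libraries. The replicate block called 0 and 0. Same-numbered libraries did not all deviate together (correlations 0.49, 0.30 and -0.02 over genes, with WT replicate 2 closest to LKO replicate 3), so the numbers were not taken to pair the samples. With the block the mitochondrial share differed by -3.11 points (exact permutation p = 0.75) and the rRNA share by -1.25 points (exact permutation p = 0.25, the smallest that 3 pairs allow, with all 3 differences below 0).

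Directions turned for some tRNAs and 1 copy. Scaled to library totals, mt-Ts2 was -0.076, mt-Tp -0.0066 and Gm28438 -0.025. Scaled to nuclear reads, mt-Ts2 was -0.12, mt-Tl2 -0.042, mt-Tp -0.051 and Gm28438 -0.066. With voom mt-Tv was 0.18 and mt-Ts2 -0.0077. Without both replicate 1 libraries mt-Tn was -0.90, mt-Ts2 -0.65, mt-Tl2 -0.55, mt-Tt 0.25 (from -0.78), mt-Tp -0.96 and Gm28438 -0.95. Among mRNA shares, the groups did not overlap for 1 mRNA (mt-Nd1) as a share of reads. They did not overlap for 2 (mt-Nd1, mt-Nd2) without mt-Atp8, mt-Atp6, mt-Nd4l and mt-Nd4.

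Leaving out each library in turn gave 0 to 4 genes lower and 0 to 13 higher, a mitochondrial share difference of -10.2 to 1.19 points, and 0 to 3 mRNA shares without overlap. The log2 differences ran from -1.13 to 0.28 for mt-Nd1, -1.41 to 0.0027 for mt-Nd2, -1.24 to 0.080 for mt-Co1, -1.19 to 0.47 for mt-Co2, -1.57 to 0.41 for mt-Atp6, -1.55 to 0.58 for mt-Co3, -0.96 to 0.12 for mt-Nd3, -1.47 to 0.15 for mt-Nd4l, -1.29 to 0.12 for mt-Nd4, -1.28 to 0.19 for mt-Nd6 and -1.33 to 0.064 for mt-Cytb. For tRNAs they ran from -0.49 to 0.64 for mt-Tn, -1.92 to 0.48 for mt-Tr, -0.57 to 0.51 for mt-Ts2, -0.78 to 0.96 for mt-Tp, -0.50 to 0.50 for mt-Tv, -0.43 to 0.21 for mt-Tl1, -0.59 to 0.52 for mt-Tl2, -1.16 to 0.065 for mt-Tc, -1.03 to 0.16 for mt-Th and -1.54 to 0.095 for mt-Tq. For copies they ran from -0.92 to 1.00 for Gm28438, -1.37 to 0.22 for Gm28661, -1.51 to 0.28 for Gm10925 and -1.32 to 0.41 for Gm28439, and for nuclear genes from -0.19 to 0.12 for Arid2 and -0.23 to 0.13 for Polrmt. The cause was not tested.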

Other observations

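The arginine tRNA gene mt-Tr, which lies in the interval that is 1 base longer on chromosome 1 than in the mitochondrial genome, holds a run of 8 A (capitals below). In WT it had 81, 95 and 2 reads and in LKO 26, 25 and 10 reads (replicates 1 to 3), so that WT replicate 3 was far below the other WT libraries although its mitochondrial reads were not.
mt-Tr: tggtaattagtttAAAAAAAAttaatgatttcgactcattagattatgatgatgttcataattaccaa

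Among the copies on chromosome 2, Gm13340 had 292 to 1807 reads per library. This copy of mt-Co1 was at 35.6, 17.3 and 74.9 FPKM in WT and 90.3, 12.1 and 14.6 in LKO. Gm13341, the copy of mt-Co2, was at 3.78, 2.03 and 14.1 FPKM in WT and 10.4, 2.67 and 1.57 in LKO. For both, WT replicate 3 and LKO replicate 1 were the 2 highest libraries.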
